A study of Arabidopsis thaliana with 8 samples.

Results

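A set of 67 array probe sets had a higher signal in both double mutants, gbf1 hy5 and gbf1 hyh, than in wild type and in the gbf1 single mutant. The 67 were taken from 22746 probe sets, with the manufacturer's control probe sets left out. Members were chosen by the signal on all 8 arrays: a probe set was taken where the lowest of the 4 double mutant values lay at least 0.3 log2 above the highest of the 4 wild type and gbf1 values. This gap is called the margin below. The condition was met by 68 probe sets (0.299% of all), and SCPL49 was then left out because genes with SCPL, GID1, GH9 or BGLU symbols were not wanted in the set. In the annotation used here 34 of the 67 members belong to exactly 1 gene and 1 to more than 1 gene, and 32 have none.

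Whole Arabidopsis thaliana seedlings, 4 days old, were measured on 8 Affymetrix arrays. The plated seeds of every group were kept at 4 °C for 4 days and the seedlings then grown on medium with 1% sucrose at 22 °C, under white light kept on throughout at an intensity of 20 µmol m-2 s-1. Each of 4 genotypes had 2 biological replicates, 1 array each. The genotypes were wild type of the Col-0 ecotype, gbf1, which is a single mutant, and a pair of double mutants, gbf1 hy5 and gbf1 hyh, so all groups but wild type carry a gbf1 mutation. The labels name an ecotype for wild type only and give no alleles, so the effect of a mutation and a difference of genetic background cannot be told apart. They do not say how many seedlings made up a sample, and in whole seedlings a change in the share of a tissue cannot be told apart from a change of transcript per cell. Every value below is a signal on the log2 scale from which the probe set's own median over the 8 arrays has been subtracted. No expression level can be read from it, and genes are compared by differences only. For every member the highest value among wild type and gbf1 and the lowest among the double mutants are therefore equal in size and opposite in sign.

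GBF1, HY5 and HYH are transcription factors of the bZIP family, which bind DNA elements with an ACGT core. HY5 promotes the development of seedlings in light and its protein is removed in the dark through the ubiquitin ligase COP1. HYH is the closest relative of HY5 and shares part of its work, while GBF1 can act with or against them depending on the response. The members are probe sets whose signal was higher whether hy5 or hyh was mutated beside gbf1. No hy5 or hyh single mutant was measured. Whether the higher signal needs the gbf1 mutation therefore cannot be told from these arrays.

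HYH itself (AT3G17609) was read as a check of the labels. Its signal was 1.08 and 0.86 on the wild type arrays, 1.69 and 1.94 in gbf1, -1.01 and -0.86 in gbf1 hy5, and -2.03 and -1.78 in gbf1 hyh. It was lowest on the arrays labelled gbf1 hyh, and it was also below wild type in gbf1 hy5, the opposite direction to the members described here. The annotation used here ties no probe set to GBF1 or HY5, so these genes were not checked.

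Markers of tissues differed between the genotypes too. Of 10 green tissue markers 3 were tied to a probe set, all of the LHCB4 family of antenna proteins in photosystem II. LHCB4.2 was at 0.08 and 0.39 in wild type, 0.81 and 0.44 in gbf1, -1.61 and -1.69 in gbf1 hy5, and -0.31 and -0.08 in gbf1 hyh, so all double mutant arrays lay below all others. In limma LHCB4.2 fell by 1.89 in gbf1 hy5 against wild type (adjusted p = 0.00113), while the difference in gbf1 hyh was -0.43 (adjusted p = 0.446). LHCB4.1 was also lower on every double mutant array, by little and without passing (-0.38 and -0.12), and LHCB4.3 did not split that way. The summed value of the 3 was -0.26 to 0.21 in wild type, 1.04 to 1.12 in gbf1, -2.11 to -2.04 in gbf1 hy5 and -0.08 to -0.03 in gbf1 hyh. Of 7 root hair markers, the expansins EXPA7 and EXPA18 were tied to a probe set, and their sum was -0.83 to -0.57 in wild type, 2.13 to 2.80 in gbf1, -0.45 to -0.42 in gbf1 hy5 and 0.15 to 0.85 in gbf1 hyh. EXPA18 rose by 1.08 in gbf1 hyh against wild type (adjusted p = 0.0146) and by 1.98 in gbf1 (adjusted p = 0.00173). EXPA7 did not pass in either comparison, with differences of 0.12 (adjusted p = 0.929) and 1.18 (adjusted p = 0.0933). The annotation ties none of 11 seed markers to a probe set. The part of these differences in the members' values was not tested, and since values are centred the labelled tissue could not be checked by level.

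The members differed widely in size. All 8 arrays chose them, so the values that follow are a description and no test was made of them. The margin ranged from 0.30 to 3.78 with a median of 0.40, and it was under 0.5 in 52 members and at least 1 in 6. The difference between the mean of the double mutant arrays and the mean of the wild type and gbf1 arrays ranged from 0.45 to 5.13, with a median of 0.82, and it was at least 1 in 19 members. Without gbf1 replicate 2 and gbf1 hyh replicate 2, whose control signal was high, the same members had a median difference of 0.76 and a range of 0.43 to 4.50. Among the members, replicates differed by a median of 0.15 in wild type, 0.14 in gbf1, 0.15 in gbf1 hy5 and 0.15 in gbf1 hyh. Over all probe sets these medians were less even, at 0.141, 0.215, 0.143 and 0.203. A few genes thus stood several log2 units apart, and in most members the margin was under 0.5.

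**Figure D1:**
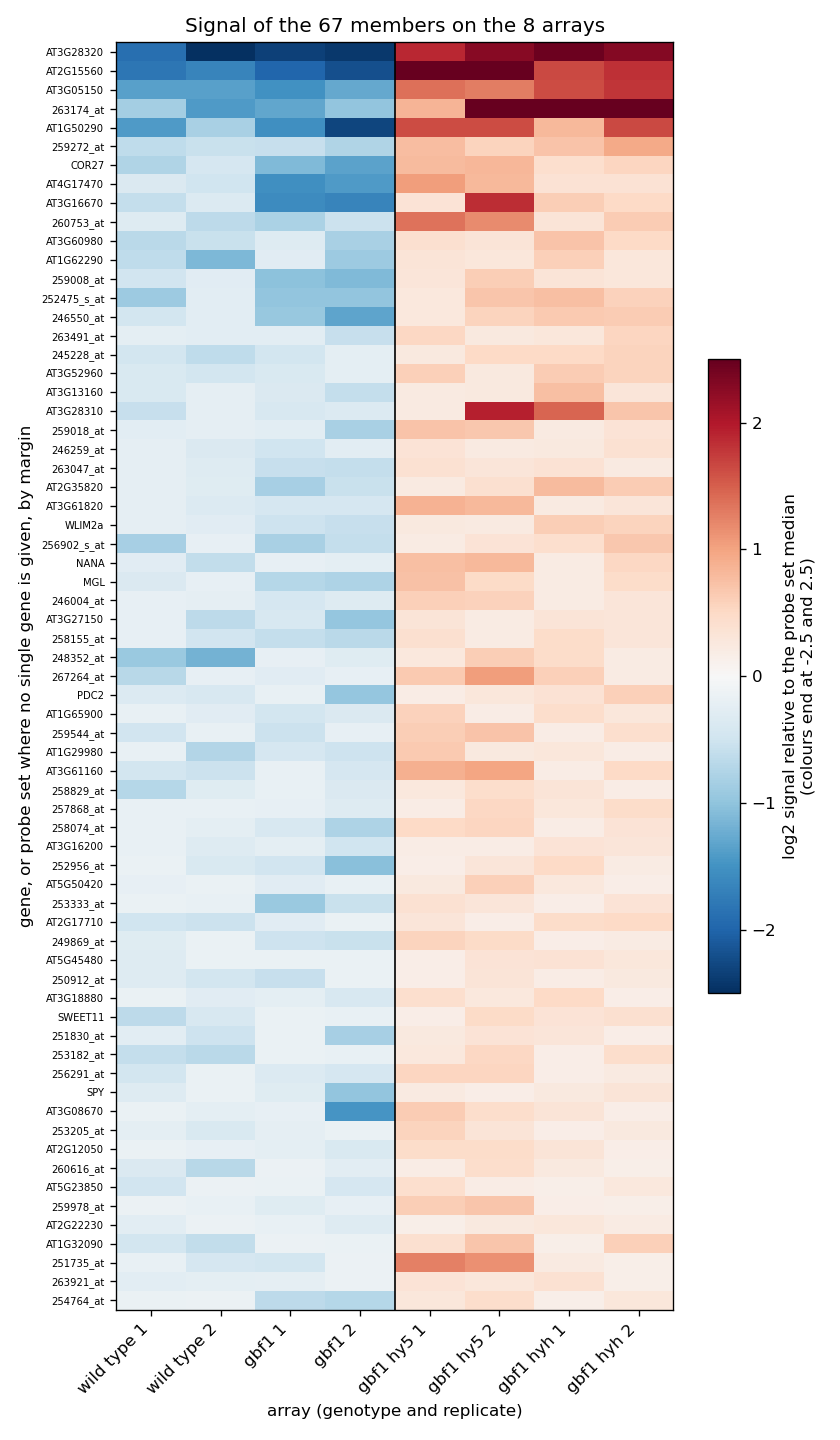
Log2 signal of the 67 members relative to each probe set's median (colour, cut at -2.5 and 2.5) on the 8 arrays (columns, genotype and replicate), with members in order of margin from 3.78 at the top to 0.30 at the bottom. The 4 columns right of the line are the double mutants, and 52 of 67 margins were under 0.5. Strong colour lies mostly in the upper rows, but some lower rows hold strong single values, such as -1.47 for AT3G08670 in gbf1 replicate 2.

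AT3G28320 had the largest margin. Its signal was -1.89 and -2.58 in wild type, -2.33 and -2.42 in gbf1, 1.89 and 2.28 in gbf1 hy5, and 2.45 and 2.30 in gbf1 hyh. The arrays fell into 2 blocks of 4. In them the gbf1 values lay between the wild type values, and gbf1 hyh lay just above gbf1 hy5. The mean difference between the blocks was 4.54.

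AT2G15560 came next, at -1.81 and -1.64 in wild type, -1.99 and -2.19 in gbf1, 2.84 and 2.65 in gbf1 hy5, and 1.64 and 1.83 in gbf1 hyh. Here both gbf1 hy5 arrays lay above both gbf1 hyh arrays, and the blocks differed by 4.15.

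AT3G05150 belongs to the family of ERD6-like sugar transporters, membrane proteins that carry sugars across the vacuolar membrane or the plasma membrane. It was measured at -1.36 and -1.36 in wild type, -1.51 and -1.27 in gbf1, 1.37 and 1.27 in gbf1 hy5, and 1.63 and 1.79 in gbf1 hyh. Replicates lay close together, the double mutants did not overlap each other, and the blocks differed by 2.89. Of 19 genes of this family in the list used here, the annotation ties 10 to a probe set, and 1 of them, AT3G05150, is a member. In limma AT3G05150 was also the only one of the 10 that passed, upward, in gbf1 hy5 against wild type and in gbf1 hyh against wild type, comparisons in which 1.06% and 0.365% of all probe sets passed upward. None passed downward, where 1.11% and 0.919% of all probe sets passed. Since the rule used those arrays, these calls of AT3G05150 are a description. The median difference of the 10 was 0.08 and 0.20, against 0.02 and 0.03 over all probe sets. AT3G05400 of the same family had differences of 0.79 in gbf1 hy5 (adjusted p = 0.172) and 0.36 in gbf1 hyh (adjusted p = 0.697).

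AT1G50290 was at -1.43 and -0.81 in wild type, -1.54 and -2.30 in gbf1, 1.64 and 1.63 in gbf1 hy5, and 0.81 and 1.65 in gbf1 hyh. Its margin of 1.61 was set by wild type replicate 2 and gbf1 hyh replicate 1. In every genotype but gbf1 hy5 its replicates were wider apart than those of AT3G05150.

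Probe set 263174_at, which the annotation ties to no gene, had the most uneven pattern. It was at -0.86 and -1.41 in wild type, -1.29 and -0.98 in gbf1, 0.86 and 2.69 in gbf1 hy5, and 6.38 and 6.02 in gbf1 hyh. The gbf1 hyh arrays stood far above all others, and the gbf1 hy5 replicates differed by 1.84, the widest replicate difference of gbf1 hy5 among the members. Probe set 259272_at, also without a gene, was even by contrast, at -0.63 and -0.56 in wild type, -0.57 and -0.74 in gbf1, 0.77 and 0.56 in gbf1 hy5, and 0.71 and 0.95 in gbf1 hyh. Probe set 260753_at, the other member without a single gene among those of largest margin, was at -0.32 and -0.66 in wild type, -0.80 and -0.55 in gbf1, 1.35 and 1.18 in gbf1 hy5, and 0.32 and 0.64 in gbf1 hyh, with gbf1 hy5 above gbf1 hyh on every array.

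**Figure D2:**
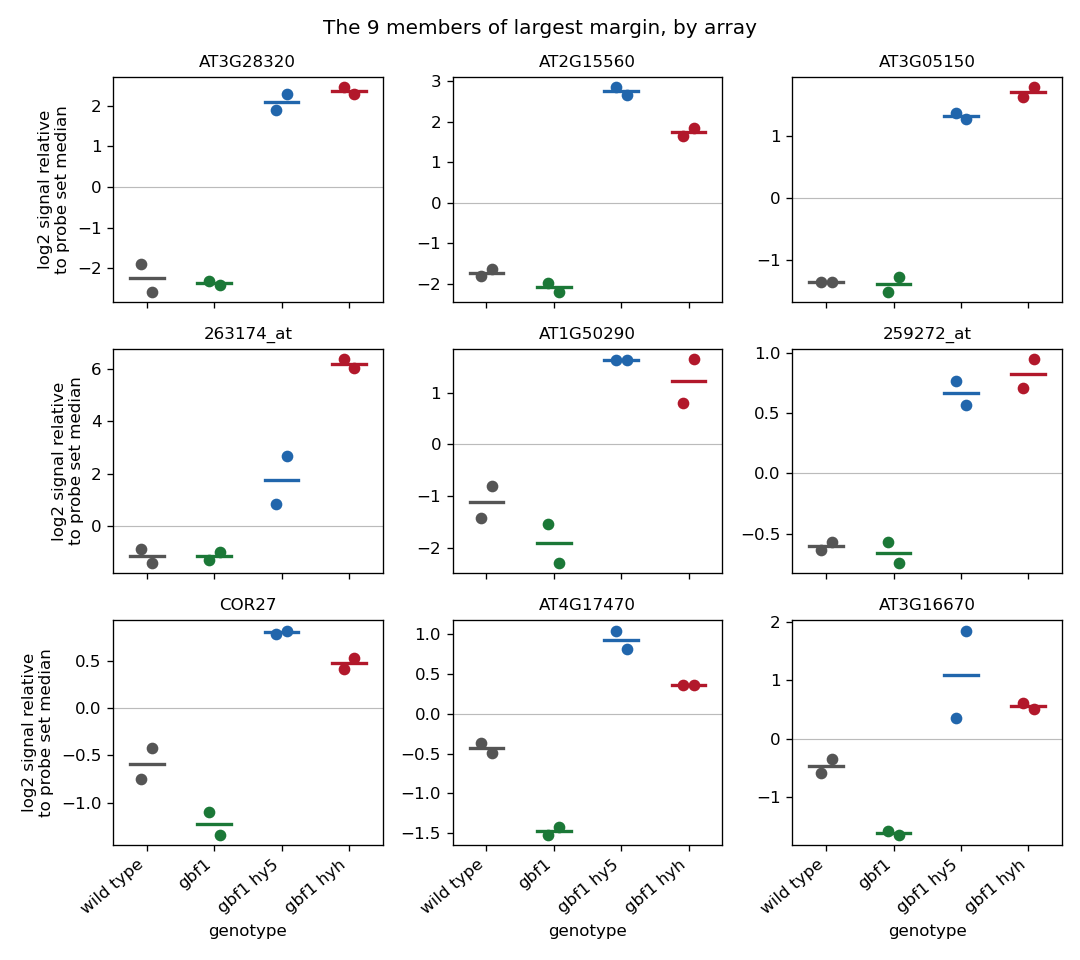
Log2 signal relative to the probe set median (vertical axes, each panel on its own scale) by genotype for the 9 members of largest margin. Points are single arrays and bars are means of 2. AT3G28320 and AT3G05150 show 2 levels, COR27, AT4G17470 and AT3G16670 are lower in gbf1 than in wild type, and 263174_at is highest in gbf1 hyh at 6.38 and 6.02.

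COR27 encodes a small cold-regulated protein that takes part in the circadian clock and in light signalling. Its signal was -0.76 and -0.42 in wild type, -1.11 and -1.34 in gbf1, 0.79 and 0.82 in gbf1 hy5, and 0.42 and 0.53 in gbf1 hyh. The genotypes did not overlap and ran in the order gbf1, wild type, gbf1 hyh, gbf1 hy5.

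AT4G17470 showed the same order, at -0.36 and -0.49 in wild type, -1.52 and -1.42 in gbf1, 1.05 and 0.81 in gbf1 hy5, and 0.37 and 0.36 in gbf1 hyh. AT3G16670 was at -0.59 and -0.35 in wild type, -1.58 and -1.65 in gbf1, 0.35 and 1.86 in gbf1 hy5, and 0.62 and 0.51 in gbf1 hyh. In AT3G16670 gbf1 was clearly the lowest, while the 2 gbf1 hy5 replicates lay on either side of both gbf1 hyh values.

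A few members have known roles in sugar transport or metabolism, which is no statement on the set as a whole. SWEET11, a sucrose exporter that helps load the phloem, was at -0.65 and -0.40 in wild type, -0.17 and -0.19 in gbf1, 0.17 and 0.48 in gbf1 hy5, and 0.34 and 0.40 in gbf1 hyh. Its margin was 0.33, and gbf1 lay between wild type and the double mutants. PDC2, a pyruvate decarboxylase of ethanolic fermentation, was at -0.34 and -0.39 in wild type, -0.20 and -0.96 in gbf1, 0.20 and 0.29 in gbf1 hy5, and 0.37 and 0.60 in gbf1 hyh. The gbf1 replicates of PDC2 differed more than the margin of 0.39. NANA, an aspartic protease of the chloroplast that affects carbohydrate metabolism, was at -0.29 and -0.62 in wild type, -0.21 and -0.25 in gbf1, 0.76 and 0.80 in gbf1 hy5, and 0.21 and 0.51 in gbf1 hyh, with gbf1 hy5 the highest genotype.

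Other members with a gene symbol act in hormone signalling, amino acid breakdown and the cytoskeleton. SPY (SPINDLY), an enzyme that adds fucose to proteins and restrains gibberellin signalling, was at -0.32 and -0.16 in wild type, -0.30 and -0.98 in gbf1, 0.23 and 0.16 in gbf1 hy5, and 0.24 and 0.33 in gbf1 hyh. Except for gbf1 replicate 2, all its values lay within 0.33 of the median. MGL, methionine gamma-lyase, which breaks down methionine, was at -0.36 and -0.21 in wild type, -0.71 and -0.78 in gbf1, 0.74 and 0.49 in gbf1 hy5, and 0.21 and 0.46 in gbf1 hyh. WLIM2a, a LIM-domain protein that bundles actin filaments, was at -0.22 and -0.28 in wild type, -0.51 and -0.57 in gbf1, 0.24 and 0.22 in gbf1 hy5, and 0.61 and 0.56 in gbf1 hyh. MGL and WLIM2a were both lowest in gbf1, but the higher double mutant was gbf1 hy5 by mean for MGL and gbf1 hyh on both arrays for WLIM2a.

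Among members named by locus only, AT3G52960 encodes a peroxiredoxin of the chloroplast, an enzyme that removes peroxides. It was at -0.37 and -0.45 in wild type, -0.38 and -0.24 in gbf1, 0.61 and 0.24 in gbf1 hy5, and 0.63 and 0.57 in gbf1 hyh. AT1G62290 and AT3G61820 belong, like NANA, to the aspartic proteases, enzymes that cut proteins. AT1G62290 was at -0.63 and -1.13 in wild type, -0.28 and -0.91 in gbf1, 0.33 and 0.28 in gbf1 hy5, and 0.60 and 0.29 in gbf1 hyh. AT3G61820 was at -0.22 and -0.34 in wild type, -0.42 and -0.43 in gbf1, 0.87 and 0.82 in gbf1 hy5, and 0.22 and 0.31 in gbf1 hyh. The replicates of AT1G62290 were wide apart in wild type and gbf1, whereas those of AT3G61820 were close and gbf1 hy5 stood above gbf1 hyh.

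AT3G61160, a protein kinase of the shaggy-like family, also had the higher signal in gbf1 hy5, at 0.89 and 0.98 against 0.19 and 0.49 in gbf1 hyh, with -0.46 and -0.54 in wild type and -0.19 and -0.43 in gbf1. AT2G35820 had the opposite order, at 0.22 and 0.41 in gbf1 hy5 and 0.79 and 0.64 in gbf1 hyh, with -0.22 and -0.31 in wild type and -0.84 and -0.55 in gbf1. Of the remaining genes named by the margin, AT3G60980, AT3G13160, AT3G27150 and AT1G65900 had differences between the 2 blocks of arrays of 1.07, 0.77, 0.85 and 0.70. The block difference of the other 13 members with 1 gene, SPY and SWEET11 included, lay between 0.45 (AT2G22230) and 0.91 (AT3G08670).

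At the threshold, the members just inside were 251735_at, 263921_at and 254764_at with margins of 0.30, and the probe sets just outside were 257715_at, AT1G09660 and AT1G30260, also at 0.30 after rounding. The margins just inside and just outside were thus nearly equal, and at thresholds of 0.2 and 0.5 the rule took 139 and 15 probe sets.

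The rule treats wild type and gbf1 alike, and their difference was read from the fit over all probe sets. The rule also used these arrays: each of their values must lie at least 0.3 log2 below the lowest double mutant value. Upward deviations on them are thus limited among the members and downward ones are not, although a member can be higher in gbf1 than in wild type. Calls and counts of members in gbf1 against wild type are therefore a description, and the shares over all probe sets are not what unchanged members would show. In limma, with p-values adjusted over all 22746 probe sets, 1 of 67 members passed lower in gbf1 (0.193% of all probe sets did) and 0 passed higher (0.224% of all). The member was AT4G17470, which fell by 1.04 in gbf1 (SE 0.146, adjusted p = 0.0224), with both gbf1 arrays below both wild type arrays. This call ended in 8 of 14 alternatives, among them the omission of either wild type array (adjusted p = 0.238 and 0.213), either gbf1 array (0.0603 and 0.0803) or either gbf1 hy5 array (0.0568). AT3G16670 had a difference of -1.14 (adjusted p = 0.383), AT1G50290 of -0.80 (adjusted p = 0.533) and COR27 of -0.64 (adjusted p = 0.210), and none of these passed.

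By sign, the difference of gbf1 from wild type was below 0 in 46 of 67 members (68.7%, against 48.8% of all probe sets), with a median of -0.11 against 0.01. Over all probe sets the median replicate difference was wider in gbf1, at 0.215, than in wild type, at 0.141. Both gbf1 arrays lay below both wild type arrays in 26 members, where 18.0% of all probe sets did so, and above in 10, where 18.8% did. At an unadjusted p under 0.05, 14 members were lower and 2 higher in gbf1, against 4.73% and 4.01% of all probe sets. The array gbf1 replicate 2 held the lowest of the 8 values in 30 members (44.8%) and in 20.2% of all probe sets. These shares are not alike, since by the rule no double mutant array can hold a member's lowest value. The share among members was also the larger one for wild type replicate 1 (13.4% against 8.92%) and wild type replicate 2 (20.9% against 13.0%). For gbf1 replicate 1 it was 20.9% against 11.3%. Without gbf1 replicate 2 the median difference was -0.06, with 41 of 67 below 0. The part of the rule and of this array in these counts was not tested further.

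The double mutants were compared with each other in the same fit. The same limit holds, with low values barred on these arrays, so calls and counts are again a description. In limma 3 of 67 members passed, against 2.77% of all probe sets. Of these, 2 were higher in gbf1 hy5 (1.76% of all) and 1 was higher in gbf1 hyh (1.02% of all were lower in gbf1 hy5). AT2G15560 was 1.01 higher in gbf1 hy5 (SE 0.157, adjusted p = 0.0110), and the probe set 251735_at without a gene was 1.02 higher (SE 0.160, adjusted p = 0.0113). Both calls ended without gbf1 hy5 replicate 1 (adjusted p = 0.119 for each) and without gbf1 hy5 replicate 2 (0.0682 and 0.0873), and that of 251735_at also without gbf1 hyh replicate 2 (0.0666). Probe set 263174_at was lower by 4.43 in gbf1 hy5 (SE 0.481, adjusted p = 0.00168). That call held with any 1 array left out and ended after quantile normalisation, where the difference was -1.68 (adjusted p = 0.419). Probe set 251735_at is named because it was called, which was seen first.

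The remaining 64 members did not pass between the double mutants. Their adjusted p-values do not show that the double mutants had equal signals. AT3G61820 had a difference of 0.58 (adjusted p = 0.0595), AT4G17470 of 0.56 (adjusted p = 0.0888), AT3G61160 of 0.60 (adjusted p = 0.104) and AT3G05150 of -0.39 (adjusted p = 0.269). AT3G28320 differed by -0.29 (SE 0.230, adjusted p = 0.670). By sign, 40 members were higher in gbf1 hy5 and 27 in gbf1 hyh, with a median difference of 0.06 against -0.01 over all probe sets. Both gbf1 hy5 arrays lay above both gbf1 hyh arrays in 20 members (22.1% of all probe sets) and below in 13 (22.0% of all). As shares of the 67 members these counts are 29.9% and 19.4%.

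**Figure D3:**
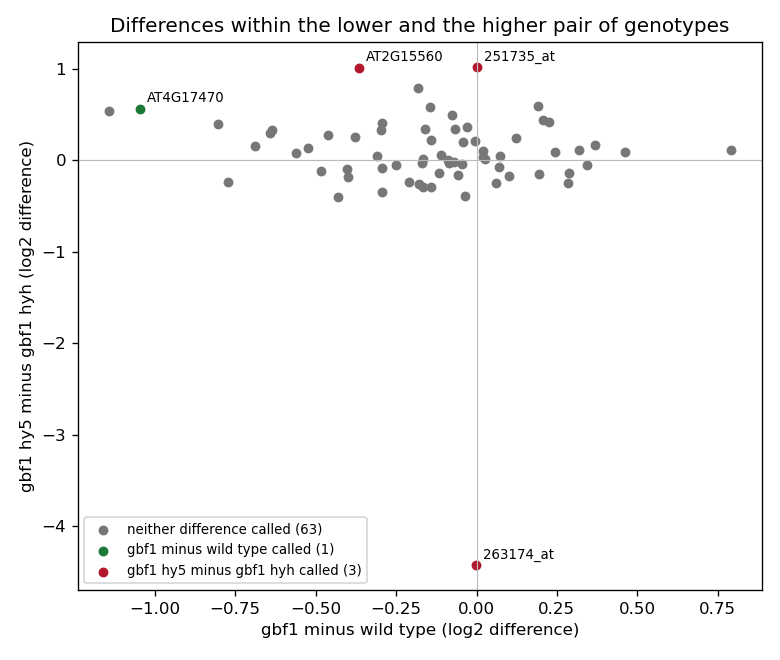
Differences between genotypes that the rule treats alike, for the 67 members. The horizontal axis is gbf1 minus wild type and the vertical axis gbf1 hy5 minus gbf1 hyh, both as log2 differences of means of 2 arrays, and colours mark the limma calls. The called members are AT4G17470 at -1.04 on the horizontal axis and AT2G15560, 251735_at and 263174_at at 1.01, 1.02 and -4.43 on the vertical axis.

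The rule did not use the position of a gene, and the members with 1 gene were unevenly spread over the chromosomes. Of these 34 genes, 16 (47.1%) lie on chromosome 3, which holds 2720 of 13217 measured nuclear genes (20.6%). Chromosomes 1 and 2 hold 6 each (17.6%, against 25.8% and 16.4% of measured genes), chromosome 5 holds 5 (14.7% against 22.6%) and chromosome 4 holds 1, AT4G17470 (2.94% against 14.6%). HYH lies on chromosome 3 as well. By the labels only gbf1 hyh carries a hyh mutation, while the rule asks for a higher signal in gbf1 hy5 too. The part of the position of HYH in this spread was not tested. The 32 members without a gene could not be placed.

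The members on chromosome 3 are AT3G28320, AT3G05150, AT3G16670, AT3G60980, AT3G52960, AT3G13160, AT3G28310, AT3G61820, NANA, AT3G27150, AT3G61160, AT3G16200, AT3G18880, SWEET11, SPY and AT3G08670. By locus name they run from AT3G05150 to AT3G61820, and 11 of 16 (68.8%) have a name below AT3G30000, against 55.7% of the measured genes of the chromosome. The break at AT3G30000 was chosen after the values were seen. Within 500 places of HYH in the order of protein-coding genes lay 3 of the 16, against 18.1% of measured genes of chromosome 3, and the nearest was 101 places away. The median distance from HYH was 1138 places in the members and 1352.5 in the measured genes of chromosome 3. By locus name no member lies between AT3G28320 and SWEET11 (AT3G48740). Whether the members cluster along the chromosome was not tested.

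Other sets gave a scale for the share of 47.1%. Of 42 genes with margins from 0.2 to 0.3, which the rule did not take, 14 (33.3%) lie on chromosome 3. When the condition was turned round, 141 probe sets had all double mutant values at least 0.3 below all wild type and gbf1 values, and 46 of their 66 genes (69.7%) lie on chromosome 3. Among genes called higher by limma, chromosome 3 held 26 of 105 (24.8%) in gbf1 hy5 against wild type and 11 of 49 (22.4%) in gbf1 hyh against wild type, and with members left out 18 of 89 (20.2%) and 5 of 35 (14.3%). Between the double mutants, with members left out, it held 22 of 194 genes (11.3%) called higher in gbf1 hy5 than in gbf1 hyh. Of those called lower in gbf1 hy5 than in gbf1 hyh it held 10 of 113 (8.85%). Among genes called lower it held 48 of 124 (38.7%) and 41 of 108 (38.0%) in the same comparisons with wild type, and with the genes lower in both double mutants left out 20 of 81 (24.7%) and 15 of 72 (20.8%). These shares are descriptions, and the part of genetic background in them was not tested.

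**Figure D4:**
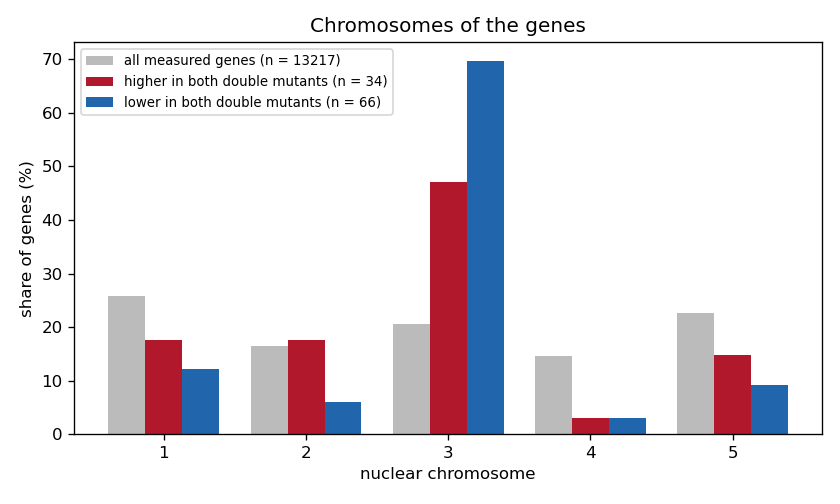
Share of genes (vertical axis, percent) on each nuclear chromosome (horizontal axis) for all 13217 measured genes, the 34 genes higher in both double mutants and the 66 genes lower in both. Chromosome 3 holds 20.6%, 47.1% and 69.7% of them.

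The genes next to the members were read in the same fit. Of the genes directly before or after a member in the order of protein-coding genes, 25 were tied to a probe set and were no members. In limma 0 of 25 passed in either direction in gbf1 hy5 against wild type (1.06% and 1.11% of all probe sets passed upward and downward) or in gbf1 hyh against wild type (0.365% and 0.919%), and with shares this low a count of 0 in 25 does not set them apart from other genes. At an unadjusted p under 0.05, 4 were higher and 1 was lower in each of these comparisons, against 6.94% and 5.33% of all probe sets in the first and 4.87% and 5.39% in the second. Their median differences were 0.08 and 0.01. AT3G28330, next to AT3G28320, differed by 0.30 (adjusted p = 0.553) and 0.32 (adjusted p = 0.573). AT3G16660, next to AT3G16670, differed by 0.50 and 0.63, and AT3G16190, next to AT3G16200, by -0.62 and -0.43, and none of these passed. AT3G28270 lies near AT3G28320 but is not among the 25. It passed downward in both comparisons, at -1.16 (adjusted p = 0.027) and -1.20 (adjusted p = 0.0326). AT3G28280, also near, did not pass (0.16 and 0.32). Against gbf1, AT3G52950, next to the peroxiredoxin AT3G52960, was 0.79 higher in gbf1 hy5 (adjusted p = 0.0444; 2.4% of all probe sets passed upward), and AT3G18870, next to AT3G18880, fell by 0.59 (adjusted p = 0.0472; 2.05% passed downward). In gbf1 hyh against gbf1, 0 of 25 passed upward (1.01% of all), and the gene LrgB, next to AT1G32090, fell by 0.66 (adjusted p = 0.0403; 1.5% of all passed downward). Each of these 3 calls against gbf1 was lost in several alternatives.

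AT3G28310 and AT3G28320 were the only members within 5 places of each other, and they are adjacent. AT3G28310 was at -0.57 and -0.23 in wild type, -0.40 and -0.35 in gbf1, 0.23 and 1.95 in gbf1 hy5, and 1.45 and 0.70 in gbf1 hyh. Its double mutant replicates were far apart, unlike those of AT3G28320. Whether the probes of one gene also bind transcripts of the other was not tested. The members 252475_s_at, 256902_s_at and 266152_s_at (AT2G12050, a transcribed pseudogene) carry the suffix the manufacturer gives to probe sets that match several transcripts, so their signals may come from more than 1 gene.

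Other lists were read for comparison and hold no member. Of 35 light signalling genes the annotation ties 2 to a probe set. Of these 1, HYH, passed downward in each double mutant against wild type, where 1.11% and 0.919% of all probe sets did. HYH is the gene mutated in gbf1 hyh and was read above as the label check, so its fall there is no result for the list. FHL, a helper of phytochrome entry into the nucleus, did not pass (-0.19 and -0.40). Of 17 papain-like cysteine protease genes the annotation ties 6 to a probe set. Of these 1, AT1G29090, rose in both double mutants against wild type, by 3.21 (adjusted p = 0.000129) and 1.89 (adjusted p = 0.0036). Of all probe sets 1.06% and 0.365% passed upward. AT1G29090 was no member because gbf1 hyh, at -0.22 and -0.02, was not above gbf1, at 0.02 and 0.09. In gbf1 it was already 2.06 higher than in wild type.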

How the data were processed

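Transcript signals of 8 Affymetrix arrays were used, 2 for each of 4 genotypes. The deposited log2 values were made by the authors with RMA in GeneSpring, per the series design text and the submitters' processing notes. The base of the logarithm was taken from RMA's usual output. All 22810 probe sets have a median of 0 over the 8 arrays (within 5e-07), so each probe set is centred and no level remains. The 64 control probe sets whose names start with AFFX entered no test. A platform annotation tied 13513 of 22746 probe sets to 1 gene, and 13436 of these were found in a gene table of assembly TAIR10.1, used for names, chromosomes and gene order.

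One model with 4 genotype means was fitted to all arrays with limma 3.58.1 in R 4.3.3 (4 residual and 5.124 prior degrees of freedom), with Benjamini-Hochberg adjustment over all probe sets and calls at an adjusted p under 0.05. The fit was tested on simulated data. Members and lists were chosen with earlier results of these data known. Genes were named by a fixed rule: HYH, the 20 members with 1 gene and the 3 without of largest margin, those called within a block of genotypes, adjacent members, those at the threshold, and list members. SWEET11, SPY, AT3G08670, AT2G22230, AT3G28270 and AT3G28280 were named after their values were seen. So were the chromosome 3 members beyond that rule, the 3 members with the suffix _s_at, the neighbouring genes and the list genes. The 6 fixed lists were light signalling genes, ERD6-like sugar transporters, papain-like cysteine proteases, and seed, root hair and green tissue markers. The number of arrays limits the precision. Promoter sequences were not analysed here.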

Additional observations from a re-analysis of the deposited data

Results flagged for a closer look

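The control probe sets, which the comparisons leave out, had a higher mean signal on 2 arrays than on any wild type array. Over 45 spike-in controls the mean reached 0.814 for the gbf1 array of replicate 2 and 0.739 for the gbf1 hyh array of replicate 2. The wild type arrays were at -0.213 and 0.215, and the others between -0.275 and 0.182. One of the high arrays belongs to the lower block of genotypes and the other to the higher block.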

How the results depend on the processing

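The number of members depends on the rule: it was 139 at a threshold of 0.2, 15 at 0.5 and 171 when both arrays with high spike-in controls were left out, where fewer arrays have to satisfy it. With 1 array left out it ranged from 85 to 130. After quantile normalisation it was 57, and 54 of the 67 remained. In gbf1 against wild type, 1 member was called higher after quantile normalisation, and the 1 called lower became 0 with a trended robust prior and with the compared genotypes alone (range 0 to 1 with 1 array left out). Between the double mutants, members called higher in gbf1 hy5 were 0 with the trended robust prior, 4 when those 2 arrays were left out, and 0 to 2 with 1 array left out, and the 1 called lower became 0 after quantile normalisation. Neighbouring genes called in gbf1 hy5 against wild type were 2 higher and 1 lower with array weights, 1 and 1 with the compared genotypes alone and when those arrays were left out, and 0 and 1 after quantile normalisation. In gbf1 hyh against wild type 1 was higher after quantile normalisation. ERD6-like genes higher in gbf1 hy5 were 2 with array weights, with the compared genotypes alone and when those arrays were left out. The 1 root hair marker higher in gbf1 hyh became 0 with the trended robust prior and the compared genotypes alone (0 to 1 with 1 array left out). Against gbf1, the neighbouring genes called in gbf1 hy5 (1 higher, 1 lower) became 0 and 0 after quantile normalisation, with the trended robust prior, with array weights and with the compared genotypes alone, and the 1 lower became 0 without those arrays. With 1 array left out they ranged from 0 to 2 higher and 0 to 1 lower. In gbf1 hyh against gbf1 the 1 called lower became 0 after quantile normalisation, with array weights, with the compared genotypes alone, without those arrays and with any 1 array left out (0 to 0), while 0 to 1 were higher with 1 array left out. The cause of these changes was not tested. With the replicate number as a block, 0 members were called higher and 1 lower in gbf1 against wild type, and 2 higher and 1 lower in gbf1 hy5 against gbf1 hyh, the counts without it, and the list counts did not move either. Among the neighbours the block changed the calls of gbf1 hy5 against gbf1, to 2 higher and 0 lower, and no other count. The labels state no pairing, and the deviations of replicate 1 correlated with both signs over 6 pairs of genotypes, so the replicate numbers were not treated as pairs. The highest correlation, 0.336, was between gbf1 and gbf1 hyh, the genotypes of the 2 arrays with high spike-in controls. All other pairs lay between -0.113 and 0.092. Spike-in controls were higher on replicate 2 than on replicate 1 in all 4 genotypes, and a shared batch was not tested beyond the block. No filter by brightness was possible on centred values, and the planned promoter motif alternative was not run.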
